A study of Caenorhabditis elegans with 52 samples.

Results

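Type-I piRNAs of the *C. elegans* germ line depend on a DNA-bound complex named USTC, and the 4 genes that encode its subunits, *tofu-5*, *tofu-4*, *snpc-4* and *prde-1*, are described here by the nucleosomes mapped over them. The members were chosen by name, as 4 of 19973 protein-coding genes annotated on the nuclear chromosomes, and not by any measured value. The choice was made with earlier results of these data known. Nucleosomes were mapped by native H3 ChIP-seq in isolated germ nuclei (IGN) of young adults. Each dyad, the centre of a called nucleosome, was taken when it lay between 1000 bp upstream and 500 bp downstream of a gene. The 4 windows held 122, 128, 118 and 127 dyads in the 4 tables, of 545572, 568635, 541779 and 550900 dyads in all, and 86, 94, 82 and 91 of them lay between the annotated ends of the genes (the gene body).

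The series holds 52 samples, of which 16 are H3 samples in 8 groups of 2. Wild type was VC2010, and the mutant was SX2499, which carries *prde-1(mj207)* and is used by the study as a null. The study harvested the mutant at a later hour of growth than wild type, so age in hours differs with genotype. Animals for auxin or ethanol were grown on a separate schedule. The third strain, YL701, carries in all of its 4 groups ISW-1::eGFP::AID, a tagged remodelling ATPase that auxin marks for degradation. It also carries the transgene wrdSi51, which expresses the auxin receptor TIR1 from the *mex-5* promoter. YL701 was treated for 3 h with ethanol or with 1 mM auxin. Each genotype or treatment was washed with NaCl at 150 mM, called low salt here, or at 500 mM, called high salt. The strain list of the study does not name YL701, and depletion of ISW-1 was not checked here. Listed strains with this tag or with wrdSi51 were kept at a higher temperature than the other strains, and that of YL701 is not given. The genotype field of the high-salt wild-type and *prde-1* samples, and the salt in the treatment field of some YL701 samples, contradict the titles, which were used.

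Both replicates of a group were merged by the authors ahead of nucleosome calling. Each group is therefore 1 library, no replicate error exists, and no difference below was tested. Summit occupancy is the deposited value at the dyad, H3 signal with input subtracted, on a scale that the authors set to one total per library. Its median over all dyads was between 102 and 132 in the 8 libraries, and 18.0% to 24.2% of dyads were at 0. The number of reads behind a value is unknown. Tables were normalized separately, so levels are also given as percentiles among all dyads of the same library. Each median over a gene carries an exact binomial interval (95%) from the dyads of a gene, which share their DNA and library and are not replicates. H3 occupancy carries no marker of cell type or of expression, so neither the germline origin of the nuclei nor the *mj207* lesion could be checked.

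A piRNA is a short RNA that guides the Argonaute PRG-1 to foreign or unwanted transcripts in the germ line. In *C. elegans* each Type-I piRNA is transcribed from its own small gene, behind an upstream sequence element known as the Ruby motif. SNPC-4 is a DNA-binding subunit of SNAPc, the complex that recruits RNA polymerase to small nuclear RNA genes. PRDE-1, TOFU-4 and TOFU-5 join SNPC-4 at piRNA genes. The genes that encode these proteins are themselves ordinary protein-coding genes.

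On build WBcel235 (ce11) *snpc-4* (WBGene00001568) lies on chromosome I, at 8962322 to 8966129 on the plus strand, with 13 exons, and its 3′ end overlaps the start of *mdt-31*, a Mediator subunit. *tofu-4* (WBGene00019013, chromosome I, 4824904 to 4826639, minus strand) has 6 exons, and its start lies 433 bp from that of the divergent gene *htp-3*, which encodes a meiotic axis protein. *tofu-5* (WBGene00012167, chromosome I, 7069440 to 7070665, plus strand) has 5 exons, and its start lies 254 bp from that of the divergent gene *nuo-6*, a subunit of mitochondrial complex I. The upstream windows of both *tofu* genes are therefore shared with a second promoter.

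*prde-1* (WBGene00008995) lies on chromosome V at 15538244 to 15547086, on the plus strand, and has 8 exons over 8843 bp. The gene *F21A3.4* ends 184 bases before it, and the globin gene *glb-14* lies on the other strand inside one of its introns.

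At its 5′ end *prde-1* had a dyad next to its start, over the short intergenic stretch, and a pair of dyads inside the gene. In 2 of the 4 tables a further centre, at position -171 or -176 bp, fell just inside the far end of that stretch. The sequences under these dyads are printed because the largest difference between libraries lay there. They come from the RefSeq copy of the same assembly (plus strand, 5′ to 3′), with exon bases in capitals and other bases in lower case. The first is the whole stretch between *F21A3.4* and *prde-1* (chromosome V, 15538060 to 15538243). The other 2 are the 147 bases centred on each dyad of the pair, as listed in the high-salt auxin table (15538297 to 15538443, in exon 1, and 15538443 to 15538589, over intron 1 and exon 2).
intergenic stretch: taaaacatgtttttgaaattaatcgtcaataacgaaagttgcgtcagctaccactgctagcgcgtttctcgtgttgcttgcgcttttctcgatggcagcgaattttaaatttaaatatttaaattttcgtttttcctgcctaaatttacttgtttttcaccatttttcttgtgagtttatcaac
first dyad of the pair: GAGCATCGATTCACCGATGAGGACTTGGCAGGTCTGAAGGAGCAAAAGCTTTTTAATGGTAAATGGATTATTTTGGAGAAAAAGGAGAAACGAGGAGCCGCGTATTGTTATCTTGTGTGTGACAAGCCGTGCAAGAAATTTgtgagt
second dyad of the pair: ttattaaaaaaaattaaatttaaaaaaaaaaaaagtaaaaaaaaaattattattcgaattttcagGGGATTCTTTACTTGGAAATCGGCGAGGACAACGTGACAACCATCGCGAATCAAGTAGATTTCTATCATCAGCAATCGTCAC

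The intergenic stretch was 33.7% G or C. The first footprint was 42.9% G or C and held 141 exon bases. The second was 28.6% G or C, held 82 exon bases and contained a run of 13 adenines. The footprints share 1 base, so that in this table both nucleosomes would lie side by side with no linker.

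The upstream dyad of *prde-1* was found within 200 bp in all 8 libraries, between 69 and 11 bp before the start (median position -38 bp). Its summit occupancy was 571 in wild type and 304 in the *prde-1* mutant under low salt, and 611 and 449.9 under high salt. In YL701 it was 637 with ethanol and 688 with auxin under low salt, and 415 and 385 under high salt. These values lay between the 81.8th and the 97.5th percentile of their libraries, and the YL701 libraries did not stand apart.

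**Figure D1:**
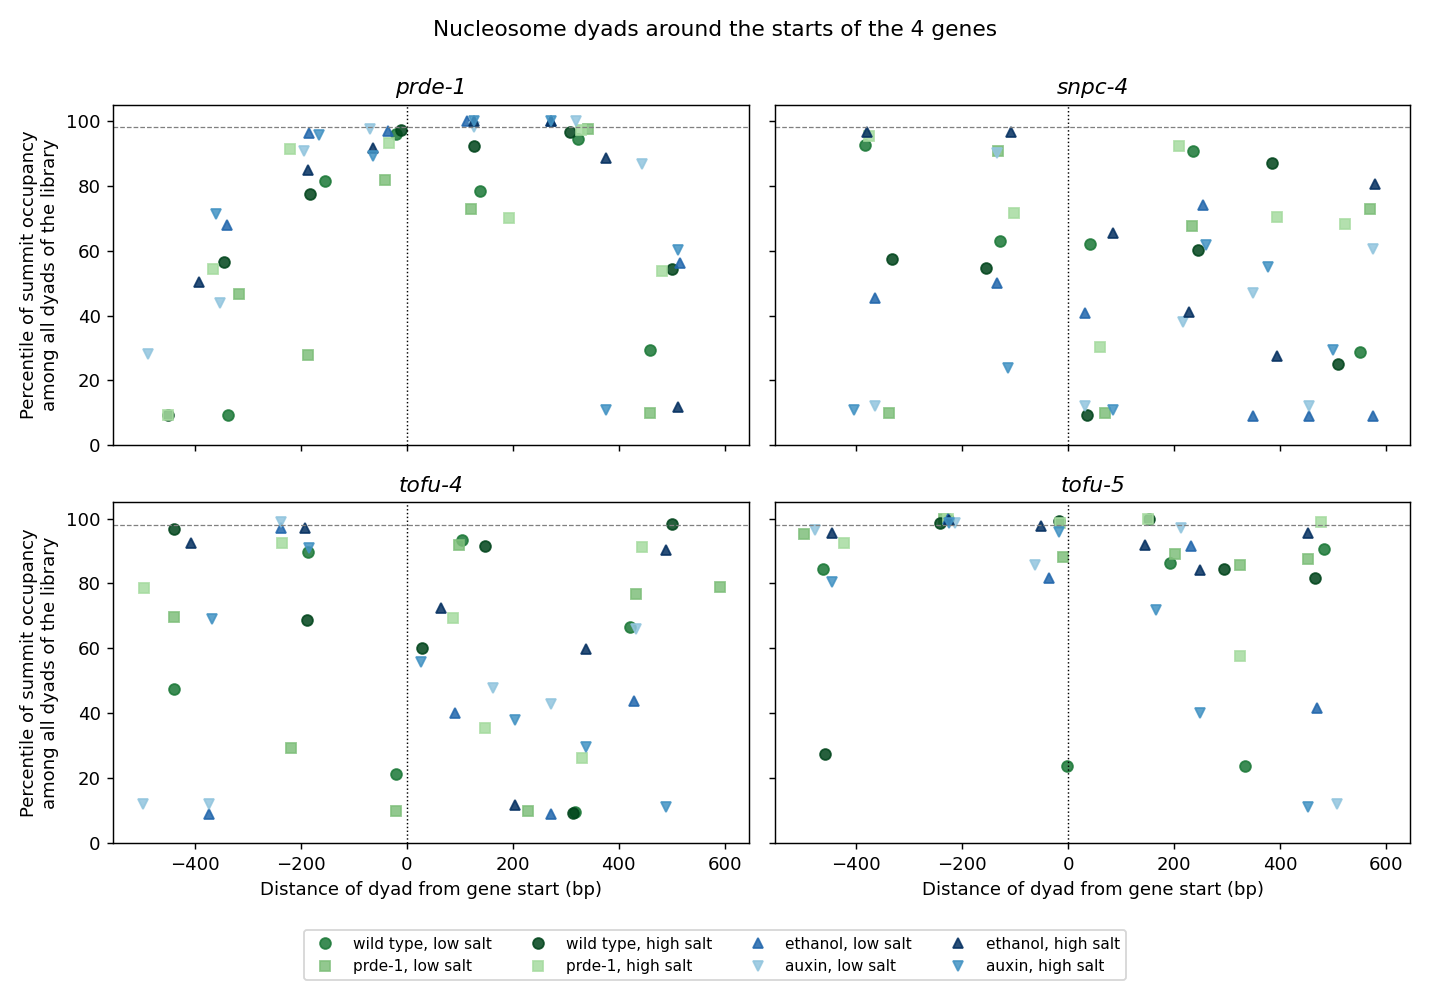
Percentile of summit occupancy among all dyads of the same library (y axis) against the distance of the dyad from the gene start in bp (x axis) for the 4 genes, 1 point per dyad and library, 8 merged libraries. The dashed line is the 98th percentile. Blue points (YL701) cluster at the top of the *prde-1* panel between 114 and 319 bp, and all 8 libraries have a dyad near the top about 230 bp upstream of *tofu-5*.

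The first dyad of the pair was far higher in YL701 than in the other strains. Its summit occupancy was 276 in wild type and 235 in the *prde-1* mutant under low salt, and 414 and 224 under high salt, at percentiles 70.0 to 92.4. The YL701 libraries had 2799.7 with ethanol and 755 with auxin under low salt, and 3791 and 3581 under high salt, at percentiles 98.2 to 99.99. The lowest YL701 value, that of auxin under low salt, was still above the highest value of the other strains.

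The second dyad showed the same split. It was 504 in wild type and 657 in the mutant under low salt, and 561 and 595 under high salt, at percentiles 94.4 to 97.4. YL701 values were 2747 with ethanol and 1739 with auxin under low salt, and 5103 and 6403 under high salt, at percentiles 99.94 to 99.999. The highest value was that of the high-salt auxin library.

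**Figure D2:**
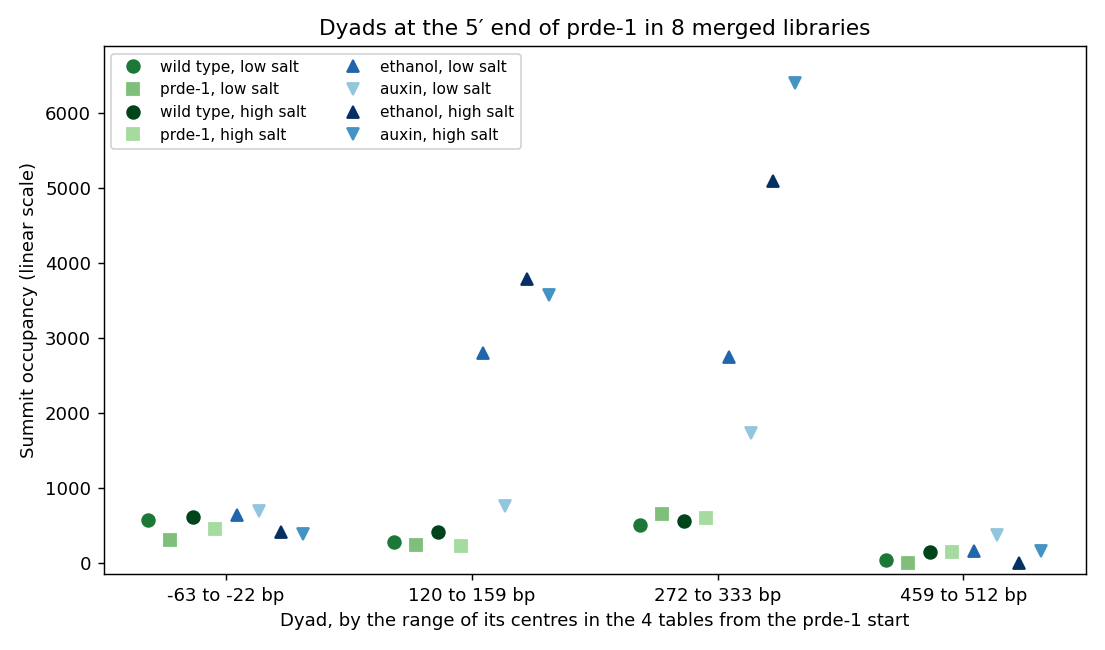
Summit occupancy (y axis, linear) of 4 neighbouring dyads of *prde-1* (x axis, by the range of their centres in bp from the start) in 8 merged libraries, 1 point per library and no error bars because each group is 1 library. Only the dyads at 120 to 159 bp and 272 to 333 bp are raised in YL701, where they reach 6403. The dyads on both sides reach at most 688.

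Over the whole gene, 29 gene-body dyads of *prde-1* were listed once in each table, with each centre at most 40 bp from the next. Both dyads of the pair, and no other, ranked higher in every YL701 library than in every wild-type or mutant library. Of 158396 such dyads in all gene bodies, 1.83% did so, and 2.84% ranked lower in every YL701 library. A stricter line was the 98th percentile. This line was chosen after the values were seen, between the pair's highest percentile in the other strains (97.4) and its lowest in YL701 (98.2). The pair therefore passed by the choice of the line, and the counts that follow do not measure how unusual the pair is. Above the line in all 4 YL701 libraries and below it in the other 4 lay 29 gene-body dyads (0.0183%). They fell in 27 genes, and *prde-1* was 1 of 2 genes that held 2 of them. The highest value among all 29, 6403, was that of *prde-1*.

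The raised occupancy did not extend to the other exons. At the 5 other exon dyads listed once in each table, YL701 values ranged from 0 to 368 with a median of 90.8. Wild-type and mutant values there ranged from 0 to 475 with a median of 66.3. The dyads on either side of the pair, over the intergenic stretch and at 459 to 512 bp, were likewise not raised.

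Strain, transgene, harvest time, preparation and possibly temperature and GC correction differ together between the YL701 tables and the other tables. Their parts cannot be told apart. The label of YL701 names no *prde-1* transgene. The listed strain with the same tag and TIR1 transgene, YL704, also carries mjSi74, a germline transgene that holds *prde-1* sequence, and whether YL701 holds *prde-1* sequence beyond its own gene was not tested. The *prde-1* and wild-type tables are named as GC corrected, and the YL701 tables are not. The methods of the study describe GC correction for native ChIP-seq without setting YL701 apart.

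The spacing of the pair also differed between libraries. In the *prde-1* and wild-type tables the dyads of the pair lay 185 bp apart in wild type under low salt, 182 bp under high salt, and 221 and 135 bp in the mutant. In YL701 the distance was 159 and 193 bp under low salt (ethanol and auxin), and 146 and 147 bp under high salt. The high-salt YL701 libraries thus had the pair at the same spacing within 1 bp.

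Elsewhere in the introns of *prde-1*, levels were compared with base composition. The 7 intron dyads between 1272 and 3963 bp with 19.0% to 28.1% G or C in 147 bp, a group chosen after the values were seen, had a median of 358 over the wild-type and mutant libraries and 511 over YL701. Of the 28 values in each set of libraries, 2 and 1 were at 0. The other 15 intron dyads listed once in each table had medians of 170.4 and 144, with 7 and 10 of 60 values at 0. They included exceptions in both directions. The dyad at 4851 to 4876 bp, with 26.2% G or C, had a median of 237 over the 8 libraries, and those at 1967 to 1992 bp (32.3%) and 7918 to 7953 bp (40.3%) reached 821 and 635. Across the 46 to 54 gene-body dyads of *prde-1*, Spearman's rho between G or C content and summit occupancy was between -0.51 and -0.05. Across a sample of 6787 to 7241 gene-body dyads of all coding genes it was between -0.25 and 0.02. The value for *prde-1* was the lower one in each of the 8 libraries. These correlations are across sites that share DNA and library, and base composition also affects digestion, amplification and the GC correction.

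One dyad of *prde-1*, in an intron of both *prde-1* and *glb-14*, was at 0 in the treated library of all 4 tables. Its centres lay 5077 to 5087 bp from the start. It was at 135 in wild type under low salt and 146 under high salt, and at 0 in both mutant libraries. In the YL701 libraries it was at 68.9 with ethanol under low salt and 241 under high salt, and at 0 in both auxin libraries. With 1 dyad of *snpc-4*, described with that gene, 2 of 46 gene-body dyads of the 4 genes were at least 2-fold lower in all 4 tables, beside 1.39% of 158396 dyads in all gene bodies. None of the 46 was at least 2-fold higher in all 4, beside 0.929%.

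Other named dyads of *prde-1* moved the same way under both salts of one comparison. In an exon near the 3′ end, at 8114 to 8146 bp, the mutant had 337 against 54.9 in wild type under low salt, and 475 against 0 under high salt. In the second intron, at 1011 to 1035 bp, it had 24.1 against 0 and 95.6 against 34.9. After auxin a dyad at 951 to 961 bp in the same intron went from 34.4 to 437 under low salt and from 66.9 to 355 under high salt. A dyad in an exon of *glb-14*, at 6615 to 6637 bp, was at 0 with ethanol under both salts and at 139 and 58.6 with auxin.

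*tofu-5*, the shortest of the 4 genes, had a dyad that was high in all 8 libraries. It lay 235 to 220 bp upstream of *tofu-5* and 19 to 34 bp upstream of the start of *nuo-6*, so it belongs to both promoters. Its summit occupancy was 1597 in wild type and 1452 in the *prde-1* mutant under low salt, and 858 and 1511 under high salt. Among YL701 libraries it was 2045 with ethanol and 841 with auxin under low salt, and 1758 and 779.9 under high salt.

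All 8 values lay at or above the 98.5th percentile of their library. Auxin libraries had the lower value under both salts, with log2 changes of -1.28 and -1.17 (pseudocount of 1). The mutant differed from wild type by -0.14 under low salt and 0.82 under high salt. Its fuzziness, a deposited score that is larger where signal is spread more widely about the centre, was between 22.8 and 33.7, below the median over coding genes of 35.5 to 37.6. The position moved by 1 to 15 bp between the libraries of a table.

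At the start of *tofu-5* itself an upstream dyad was found in all 8 libraries, 62 to 2 bp before the start (median -17.5 bp). Its summit occupancy was 20.7 in wild type and 377 in the mutant under low salt, and 1264 and 743 under high salt. In YL701 it was 306 with ethanol and 354 with auxin under low salt, and 761 and 563 under high salt. Every high-salt value was above every low-salt value, from tables that were normalized separately.

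Inside *tofu-5* the first dyad within 200 bp was found in 5 of 8 libraries, 145 to 192 bp from the start. It was highest under high salt, at 2605 in wild type and 1240.4 in the mutant, where 7 of 16102 and 43 of 16259 coding genes with such a dyad had a value at least as high. In wild type under low salt it was 349.8, and in YL701 under high salt it was 421 with ethanol and 225 with auxin. The wild-type and mutant tables thus had this dyad near the top of the range under high salt, and the YL701 tables did not.

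Over the gene body *tofu-5* has only 6 to 8 dyads, and its median followed single dyads. Summit occupancy had a median of 169 in wild type and 308 in the mutant under low salt, and 224 and 138 under high salt. The YL701 libraries had 126 with ethanol and 26.5 with auxin under low salt, and 116 and 42.8 under high salt. The auxin libraries thus had the lowest levels, at the 14.7th and 14.4th percentile of coding genes, against the 55.9th and 64.0th with ethanol. With auxin 3 of 6 and 3 of 8 dyads were at 0, against 1 and 1 with ethanol. Over all coding genes 26.2% of gene-body dyads were at 0 with auxin and 18.3% with ethanol under low salt. Under high salt these shares were 23.6% and 24.1%. The dyad in an exon at 453 to 487 bp was at 96.2 and 552 with ethanol and at 0 with auxin under both salts.

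The median change of *tofu-5* after auxin was -2.74 under low salt (interval -7.30 to 6.97) and -1.455 under high salt (interval -9.11 to 2.66). These lay at the 6.08th and 7.65th percentile of the changes of 16001 coding genes with at least 5 gene-body dyads in every table. In the mutant the change was 0.19 under low salt (interval -0.70 to 4.03) and -0.41 under high salt (interval -2.23 to 2.28). All 4 intervals included 0. Under the alternatives other than the point occupancy (pseudocount, mean, ratio of sums, occupancy of at least 50, whole window), the change after auxin ranged from -1.975 to -0.35 under low salt and from -2.16 to -0.93 under high salt. By the mean in place of the median, the low-salt auxin level of *tofu-5* lay at the 52.1st percentile of coding genes and the high-salt one at the 6.05th.

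*tofu-4* had a less regular start. An upstream dyad within 200 bp was found in 4 of 8 libraries, 191 to 20 bp before the start. A dyad 237 to 187 bp upstream, and 196 to 246 bp from the start of *htp-3*, was nevertheless listed once in every table. It was at 397 in wild type and 39.2 in the mutant under low salt, and at 210.3 and 434 under high salt. In the YL701 libraries it was at 638 with ethanol and 915 with auxin under low salt, and at 676 and 414 under high salt. The mutant was thus lower under low salt and higher under high salt, and auxin did the reverse.

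The first dyad inside *tofu-4* was found in all 8 libraries, 27 to 163 bp from the start (median 90.0 bp). This range of 136 bp was wider than that of *prde-1* (79 bp), and the median range of 4723 coding genes with such a dyad in all 8 libraries was 108 bp. Its summit occupancy was 475 in wild type and 442 in the mutant under low salt, and 170.1 and 221 under high salt. YL701 values were 90.1 with ethanol and 100.2 with auxin under low salt, and 209.9 and 141 under high salt. No strain or treatment was high under both salts.

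Within the gene body of *tofu-4*, 7 dyads were matched between the salts. In the mutant 2 were at least 2-fold higher and 2 at least 2-fold lower under both salts. Over all coding genes the shares were 9.55% and 10.0% of matched dyads. *prde-1* had 5 higher and 2 lower of 36, *snpc-4* 1 and 2 of 10, and *tofu-5* 0 and 0 of 4. Of the 4 changed dyads of *tofu-4*, 3 are named here. An exon dyad at 1383 to 1414 bp was at 0 in wild type under both salts and at 163 and 244 in the mutant. The dyad at 622 to 657 bp went from 25.5 to 279.8 under low salt and from 110.3 to 254 under high salt. The dyad at 840 to 853 bp went from 389 to 131 and from 471 to 137. After auxin, the dyad at 632 to 666 bp went from 181 to 0 under low salt and from 141 to 0 under high salt. The mutant thus had higher and lower dyads in the same gene.

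The gene-body median of *tofu-4* was 199 in wild type and 147 in the mutant under low salt, and 235 and 201 under high salt. Among YL701 libraries it was 143 with ethanol and 79.7 with auxin under low salt, and 141 and 31.8 under high salt. The high-salt auxin library was lowest, with 5 of 11 dyads at 0 against 1 of 11 with ethanol (coding genes 23.6% and 24.1%). Its median change was -2.14 (interval -7.22 to 1.33), at the 4.08th percentile of coding genes. Under low salt the change after auxin was -0.99 (interval -7.51 to 0.87), at the 20.6th percentile. Under the same alternatives as for *tofu-5* the change after auxin ranged from -2.36 to -0.75 under high salt and from -1.94 to -0.325 under low salt. The mutant had changes of -0.555 (interval -5.22 to 3.41) and -0.05 (interval -1.78 to 5.18).

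*snpc-4* had its upstream dyad in all 8 libraries, 155 to 103 bp before the start (median -131 bp), farther from the start than in *prde-1* or *tofu-5*. Its summit occupancy was 181 in wild type and 419 in the mutant under low salt, and 148 and 233 under high salt. In YL701 it was 129 with ethanol and 419.5 with auxin under low salt, and 611 and 9.39 under high salt. Auxin libraries therefore held both a high and the lowest value of this dyad. A downstream dyad within 200 bp was found in 4 of 8 libraries, 32 to 84 bp from the start, at 52.2 to 177.

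The upstream dyad moved by 52 bp over the 8 libraries for *snpc-4*, 58 bp for *prde-1* and 60.0 bp for *tofu-5*. Over 4946 coding genes with such a dyad in all 8 libraries the median range was 116 bp, so these 3 genes lay at percentiles 15.2, 19.0 and 20.2. Their first upstream nucleosome was thus called within a narrower stretch than in most of these 4946 genes. *tofu-4*, with an upstream dyad in 4 of 8 libraries, is outside this comparison.

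Among the exon dyads of *snpc-4*, the one at 704 to 740 bp was lower in the treated library of all 4 tables. It went from 333 in wild type to 51.9 in the mutant under low salt, and from 202 to 0 under high salt. After auxin it went from 22.2 to 0 and from 129.5 to 0. Its neighbour at 927 to 928 bp did the reverse in the mutant, from 39.2 to 392 under low salt and from 129 to 1395 under high salt. That last value was the highest over *snpc-4* in any library. After auxin the same dyad went from 0 to 190.2 under low salt and from 492 to 445 under high salt. Exon dyads at 2456 to 2474 bp (186 and 233 with ethanol) and at 3210 to 3232 bp (164 and 169) were at 0 with auxin under low salt, and at 0 and 8.28 under high salt.

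Of the *snpc-4* gene-body dyads listed once in each table, the one with the highest median over the 8 libraries (532) lay in an exon at 2129 to 2201 bp. It was at 674 in wild type and 632 in the mutant under low salt, and at 156 and 467 under high salt. In the YL701 libraries it was at 665 with ethanol and 598 with auxin under low salt, and at 159 and 392 under high salt. All 4 low-salt values were above all 4 high-salt values.

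The gene-body median of *snpc-4* was 188 in wild type and 115 in the mutant under low salt, and 202 and 206 under high salt. The YL701 libraries had 104 with ethanol and 119 with auxin under low salt, and 137 and 141 under high salt. Its median change was -0.43 in the mutant under low salt (interval -2.39 to 0), and between -0.08 and 0.31 in the other 3 tables, where the intervals included 0.

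*prde-1*, the longest of the 4 and the one with most dyads, had the gene-body median that varied least between libraries. Its gene-body median was 142 in wild type and 168 in the mutant under low salt, and 132 and 124 under high salt. YL701 values were 138 with ethanol and 147 with auxin under low salt, and 149 and 137 under high salt. The raised pair at its 5′ end did not move these medians, which rest on 46 to 54 dyads. The other genes have 6 to 23, and more dyads alone make a median steadier. Relative to the median coding gene (log2), *prde-1* ran from -0.04 to 0.71 over the libraries, close to *snpc-4* at -0.16 to 0.75. The mutant libraries held no more *prde-1* dyads at 0 (7 of 50 and 10 of 54) than wild type (12 of 50 and 15 of 54). Over all coding genes 20.4% and 18.1% of gene-body dyads were at 0 in the mutant, and 19.0% and 18.5% in wild type. Dyad by dyad, the median change of *prde-1* in the mutant was 0.56 under low salt (interval -0.36 to 1.51), at the 84.0th percentile of coding genes. Under high salt it was 0.135 (interval -0.11 to 0.99). After auxin it was -0.02 under low salt (interval -0.99 to 0.59) and 0 under high salt (interval -0.80 to 0.72).

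**Figure D3:**
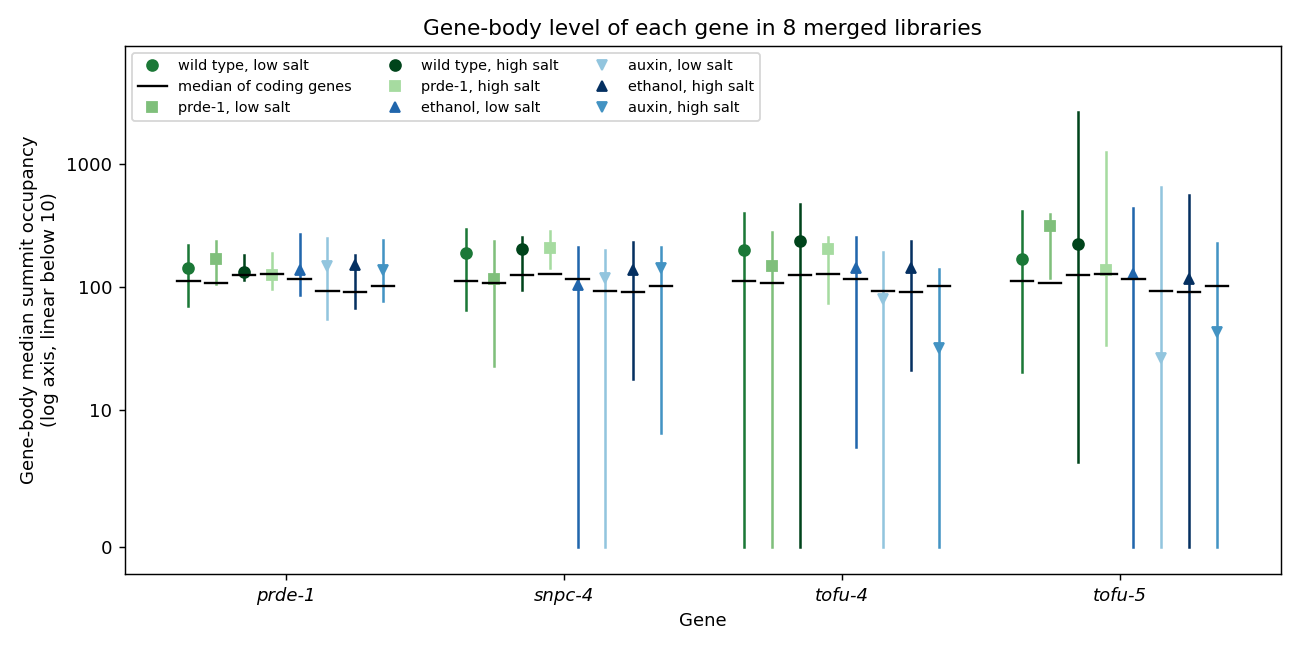
Gene-body median summit occupancy (y axis, log scale that is linear below 10) of the 4 genes (x axis) in 8 merged libraries. Vertical lines are exact binomial intervals (95%) over the dyads of the gene, and black dashes mark the median of 16001 coding genes in the same library. Intervals overlap between all genes next to each other in order of level, and the lowest points are *tofu-4* and *tofu-5* with auxin.

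In order of gene-body level the 4 genes changed places from library to library. *tofu-4* was highest in 3 libraries, *prde-1* and *snpc-4* in 2 each and *tofu-5* in 1. In each of the 8 libraries all 3 pairs of genes next to each other in that order had overlapping intervals. The median percentile among coding genes over the 8 libraries was 68.9 for *prde-1*, 73.8 for *snpc-4*, 71.6 for *tofu-4* and 59.9 for *tofu-5*. In single libraries the percentile ranged from 10.1, for *tofu-4* with auxin under high salt, to 97.1, for *tofu-5* in the mutant under low salt. By the mean, which single high dyads raise, *prde-1* lay at percentiles 94.0 to 99.2 in the 4 YL701 libraries, and *tofu-5* at 99.1 in wild type and 97.6 in the mutant under high salt.

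The number of changed dyads over the 4 gene bodies was close to that of coding genes in general. In the mutant under low salt 25 of 86 dyads were at least 2-fold lower and 28 at least 2-fold higher, beside 31.0% and 29.9% of 345117 gene-body dyads of all coding genes. Under high salt 23 of 94 were lower and 33 higher, beside 30.4% and 33.0%. After auxin 31 of 82 were lower and 24 higher under low salt, beside 37.5% and 27.5%. Under high salt 32 of 91 were lower and 27 higher, beside 33.3% and 34.8%. Passing a 2-fold line was thus about as common in coding genes at large.

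**Figure D4:**
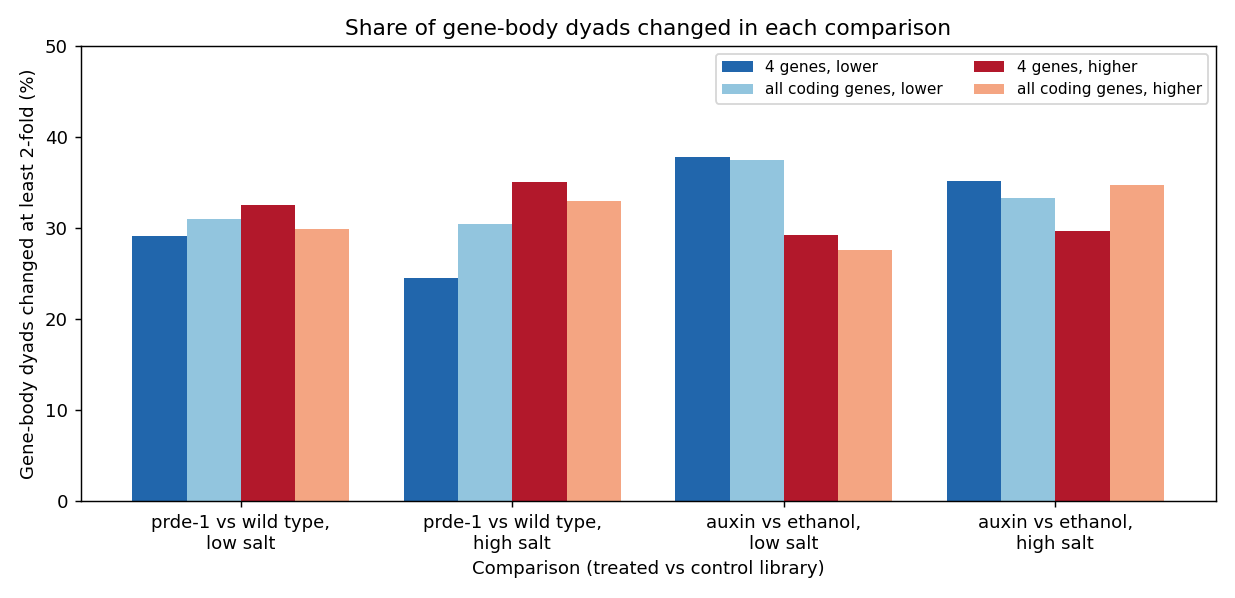
Share of gene-body dyads (y axis, percent) at least 2-fold lower (blue) or higher (red) in the treated library of each comparison (x axis), for the 4 genes (dark bars, 82 to 94 dyads) and all coding genes (light bars, 339341 to 362017 dyads). Bars show shares of dyads in 1 pair of merged libraries, without error. Dark and light bars differ by at most 6 percentage points.

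Pooled over the 4 genes, the median change in the mutant was 0 under low salt (interval -0.36 to 0.55) and 0.05 under high salt (interval -0.23 to 0.42). The medians over all gene-body dyads were 0 and 0.03. After auxin it was -0.11 under low salt (interval -0.99 to 0.35) and -0.05 under high salt (interval -0.80 to 0.58), where all gene-body dyads had -0.17 and 0.

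Of 57 dyads of the 4 genes matched between the salts, 6 were at least 2-fold lower and 8 at least 2-fold higher in the mutant under both salts, beside 10.0% and 9.55% of 226744 matched dyads. A further 7 (12.3%) passed the 2-fold line in opposite directions, beside 17.4% of all matched dyads. After auxin 9 of 51 were lower and 5 higher under both salts, beside 12.9% and 9.46% of 201436, and 8 (15.7%) went opposite ways, beside 20.1%. Both tables of a comparison come from separate H3 samples.

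Over the pooled dyads of the 4 genes, fuzziness differed mainly in the mutant under high salt. There the 4 genes had a median difference of 5.895 (mutant minus wild type, interval 1.27 to 8.98) over 64 dyads above 0 in both libraries, with 41 higher (64.1%) and 23 lower. Over all gene-body dyads the median difference was 0.46, and 51.2% were higher. Gene by gene the median fuzziness was 45.2 in the mutant and 34.0 in wild type for *prde-1*, and 50.4 and 32.4 for *snpc-4*. It was 37.3 and 30.3 for *tofu-4*, and 43.4 and 33.3 for *tofu-5*. Coding genes as a whole had 35.9 and 35.5. The difference dyad by dyad, over those above 0 in both libraries, was smaller than these gaps for 3 of the genes. It was 2.82 for *prde-1*, 3.465 for *snpc-4* and 1.24 for *tofu-4*, at the 66.7th, 70.8th and 56.0th percentile of coding genes. For *tofu-5* it was 22.2 over 7 dyads, at the 99.4th percentile, so that among the 4 genes *tofu-5* lay farthest from coding genes at large.

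In the other 3 tables the pooled difference in fuzziness was between -1.195 and 0.54, with intervals that included 0. Single genes went further. With auxin *tofu-4* had a median fuzziness of 26.97 against 38.3 with ethanol under low salt, and of 25.6 against 41.1 under high salt. These medians are over all dyads above 0 in each library. Over the 5 dyads above 0 in both libraries of a table, the median difference (auxin minus ethanol) was -17.6 under low salt and -17.8 under high salt, at the 1.78th and 2.49th percentile of coding genes. When dyads at 0 were included, the high-salt direction of *tofu-4* turned, with 50.7 with auxin against 41.6 with ethanol. Also under high salt, over dyads above 0, *snpc-4* had 37.1 with auxin against 45.7 with ethanol, and *tofu-5* 37.2 against 47.8. For *prde-1* it was 37.7 against 40.6. The difference dyad by dyad was -7.89 for *snpc-4*, -5.86 for *tofu-5* and 2.605 for *prde-1*. With dyads at 0 included, *tofu-5* turned as well (59.7 against 48.7).

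Other genes of the piRNA pathway were taken as lists. The 6 SNAPc subunit genes other than *snpc-4*, 4 genes linked to USTC or to piRNA promoters, and 8 of 11 genes for piRNA processing or function had at least 5 gene-body dyads in every table. Of the 72 values of these 18 genes in 4 tables, 7 (9.72%) lay outside the 5th to 95th percentile of coding genes, where 10% lie by definition. Over the 4 tables together the lists thus did not stand out, but 5 of the 7 values came from the high-salt auxin table. There 5 of the 18 genes lay under the 5th percentile, where 5% of coding genes lie by definition.

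In that table the 6 SNAPc genes had a median change of -0.52, with 5 below 0 and none above, beside 41.3% of all coding genes below 0 and 49.3% above. *snpc-1.3*, known as a SNAPc subunit for male piRNAs, went from 102 to 4.80, a median change of -2.515. *snpc-3.1* went from 132 to 20.1, a median change of -1.95. The 8 processing and function genes had a median change of -0.96, with 5 below 0 and 1 above, beside the same shares of all coding genes. *prg-1*, which encodes the piRNA Argonaute, went from 567 to 103 (median change -2.19). *pid-3*, part of the PETISCO complex that binds piRNA precursors, went from 238 to 12.2 (median change -4.84), although under low salt it had gone from 26.4 to 98.9 (median change 1.255). *tofu-1*, part of the enzyme that trims the 5′ end of piRNA precursors, went from 197 to 0 (median change -7.44). In the mutant under low salt *tofu-1* had also gone from 174 to 36.2 (median change -2.11). The 4 genes linked to USTC or its promoters had 1 value below 0 and 3 above in the high-salt auxin table, with a median change of 0.06. After auxin under low salt, the SNAPc genes had 3 below 0 and 3 above (median change -0.03). The processing and function genes had 4 below and 2 above there (median change -0.03). Of all coding genes 60.8% were below 0 and 31.1% above under low salt, and none of the 18 genes lay under the 5th percentile.

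The genes most like each member were found by the root mean square difference of their gene-body levels (log2 over the median coding gene) over the 8 libraries. For *prde-1* they were *ercc-1* (0.16) and *cwf-19L2* (0.16), and for *snpc-4* *B0001.7* (0.19) and *sec-12* (0.23). For *tofu-4* they were *H06H21.37* (0.18) and *tag-266* (0.22). For *tofu-5* they were *R07B7.2* (0.35) and *F36D1.12* (0.39). No member was among the genes most like another. The closest 5% of coding genes lay within 0.40 of *prde-1* and within 0.84 of *tofu-5*, so levels like that of *prde-1* were common.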

How the data were processed

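Native H3 ChIP-seq of isolated germ nuclei was analysed in 16 H3 samples (8 groups of 2, by title), and their inputs entered only through subtraction. The other samples were not analysed here. The authors used bowtie2 with the ce11 genome, removed duplicates, and downsampled and merged the 2 replicates. For native ChIP-seq the study then describes GC correction and a selection of fragments of mononucleosome size. Nucleosomes were called with DANPOS3. Deposited occupancy is a signal, from which the authors subtracted input and which they scaled. The deposited fuzziness is a score, and deposited dyad positions are in bp. Columns with the authors' fold changes, p-values and FDR were not used. Dyads were assigned to Ensembl release 115 genes with pandas 2.3.3 and numpy 2.4.6. Changes are log2 of treated over control after adding a pseudocount of 1, so changes between low values above 0 come out too small. The size of a change to or from 0 is set in part by the pseudocount and can come out large. Dyads of a low-salt and a high-salt table were matched when their centres lay within 40 bp. Dyads listed once in each table were chained, each centre at most 40 bp from the next, so a chain can span more than 40 bp. Fuzziness was taken over dyads above 0. Named dyads were the first on each side of the start within 200 bp, the highest of the control library, and up to 3 gene-body dyads at least 2-fold changed alike at both salts. Pathway genes were named where outside the 5th to 95th percentile. The members and lists were chosen with earlier results of these data known. Depth is unknown, so no count-based precision is given. Alternatives covered the pseudocount, the point occupancy, the mean, the ratio of sums, an occupancy of at least 50, the window and the gene set. The procedures were tested on simulated data.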

Additional observations from a re-analysis of the deposited data

How the results depend on the processing

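No paired analysis was possible because the authors merged both replicates of each group before calling nucleosomes, and leaving out a replicate could not be run for the same reason. Of 88 recomputed summary values of the 4 genes, 78 stayed within the interval or range of the reported value (within 1.5 times for counts), and of 160 single-gene values 18 did not. The exceptions among the summary changes and counts came from the point occupancy. The intervals of single genes are wide, and within them the auxin changes of *tofu-4* and *tofu-5* moved by more than 1.5 times (values given with those genes). The median fuzziness of *tofu-4* and *tofu-5* with auxin under high salt went from below to above that with ethanol when dyads at 0 were included (50.7 against 41.6, and 59.7 against 48.7). The point occupancy is by its construction read where the libraries differ most. With it the pooled median change was 6.23 in the mutant under low salt and 7.025 under high salt, and -6.22 and -7.03 after auxin. In the mutant under low salt it gave 39 lower and 47 higher dyads, under high salt 62 higher, and after auxin under high salt 53 lower. With a search within 300 bp the median position of the first downstream dyad of *snpc-4* was 150.0 bp and that of the upstream dyad of *tofu-4* was -204.5 bp. The 5′ end of the longest coding transcript equals the annotated gene start for all 4 genes. All values compare 1 merged library with another at unknown depth.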
